A study of Homo sapiens with 2 samples.

Results

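Acyltransferases that remodel phospholipid chains and enzymes that build phospholipid head groups were examined in U87, a glioblastoma (GBM) cell line, given for 24 h either 20 µM LXR623, an agonist of the liver X receptors (LXR), or 0.1% DMSO as the solvent control. The 10 genes were named by family and pathway role: LPCAT1, LPCAT2, LPCAT3, LPCAT4, MBOAT1, MBOAT2 and MBOAT7 as lysophospholipid acyltransferases and CHKA, PCYT1A and PCYT2 as head group enzymes. Their differences between the arrays (log2, LXR623 minus DMSO) were already known when they were named, so they count as chosen by that measure, and their values are given as a description with no test. Of the 22458 probe sets with a gene symbol, 9 stood for these genes. The platform annotation listed no probe set as MBOAT2, and the 1328 sets it left without a symbol were not named from their gene IDs, so the expression of MBOAT2 is not analysed here. Each condition had 1 array (n = 1 per group). No difference therefore has a replicate check, and precision is limited by the number of arrays.

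Total RNA of each culture was hybridised to a whole-transcript Affymetrix array, and the values are log2 expression after robust multi-array averaging (RMA). Per the labels, treatment was carried out in medium with 1.5% serum after growth in 10% serum. The culture text in the labels names HCT116 colon carcinoma cells, whereas the cell line, source and treatment labels name U87. All 9 glioblastoma line markers with a named probe set lay above the median level of all probe sets on the mean of the arrays, against 3 of 9 colon epithelial markers. The 9 glioblastoma line markers had values of log2 5.39 to 12.46 in the LXR623 array and 5.67 to 12.09 in the DMSO array. The colon markers ranged over log2 3.08 to 5.43 with LXR623 and 2.86 to 5.14 with DMSO. Between the arrays, 7 of the 9 glioblastoma line markers were lower with LXR623 and 2 higher. Of the 16902 genes kept by the level filter given below, 8162 were lower. CAV1 (log2 difference -0.66) and CHI3L1 (-0.60) were at least 1.5-fold lower, beside 2.01% of all genes kept. Those 2 and FN1 (-0.42) lay outside the central 95% of genes at their levels. Of 5 astrocyte markers, S100B and AQP4 lay below the 25th percentile of all probe sets and GFAP and ALDH1L1 between that and the median. The glutamate transporter SLC1A3 lay above it, at log2 6.87 with LXR623 and 7.76 with DMSO, a difference of -0.89 and outside the central 95% of genes at its level. Probe sets differ in how well they bind, so these ranks describe the label only loosely. As a check of the treatment, the cholesterol exporter ABCA1 was at log2 10.09 in the LXR623 array and 8.30 in the DMSO array, and SREBF1, the gene of the lipogenic factor SREBP-1, at 7.32 and 6.41 in the same order. The LXR targets ABCG1, a sterol exporter, and MYLIP, which degrades the LDL receptor, differed by 0.38 and 0.11, under 1.5-fold and inside the central 95% of genes at their levels. ABCG1 was dim, at 4.14 with LXR623 and 3.75 with DMSO, under the median level of all probe sets (log2 4.89). NR1H3 (LXR alpha) was at 5.84 with LXR623 and 5.70 with DMSO. No probe set was listed as NR1H2 (LXR beta).

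Membrane phospholipids are made by joining a head group, activated as CDP-choline or CDP-ethanolamine in the Kennedy pathway, to diacylglycerol. Their fatty acids are then exchanged in the Lands cycle, in which phospholipases A2 remove a chain and lysophospholipid acyltransferases add another, and this sets how saturated and how fluid a membrane is. The acyltransferases belong to 2 unrelated protein families, the AGPAT type (LPCAT1, LPCAT2, LPCAT4) and the membrane-bound O-acyltransferase or MBOAT type (LPCAT3, MBOAT1, MBOAT2, MBOAT7). LXR is known to switch on LPCAT3 in mouse liver and in human cells, and through it the supply of polyunsaturated phospholipids.

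The 3 genes with the highest differences were LPCAT1, LPCAT3 and PCYT2, and the bases before their starts are shown here to set the values below beside their promoters. Each sequence holds the 250 bases before the first listed start, 5′ to 3′ along the gene, from RefSeq on GRCh38.p14. Capitals mark CCAAT on either strand (ATTGG on the reverse) in LPCAT3 and PCYT2, and GGGCGG on either strand (CCGCCC on the reverse) in LPCAT1. The LPCAT3 stretch lies at chr12:7018477-7018726, that of LPCAT1 at chr5:1523961-1524210 and that of PCYT2 at chr17:81911400-81911649, all on the minus strand.
LPCAT3: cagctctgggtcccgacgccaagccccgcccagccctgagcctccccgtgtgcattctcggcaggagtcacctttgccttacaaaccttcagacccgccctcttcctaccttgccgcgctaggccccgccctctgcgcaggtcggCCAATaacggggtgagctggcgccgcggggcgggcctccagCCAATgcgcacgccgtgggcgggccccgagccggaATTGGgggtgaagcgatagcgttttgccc
LPCAT1: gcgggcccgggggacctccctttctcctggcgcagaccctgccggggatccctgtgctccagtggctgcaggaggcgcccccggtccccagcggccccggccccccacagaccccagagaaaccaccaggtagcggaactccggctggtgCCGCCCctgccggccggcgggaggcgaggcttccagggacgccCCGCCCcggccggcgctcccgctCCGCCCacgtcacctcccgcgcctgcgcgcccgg
PCYT2: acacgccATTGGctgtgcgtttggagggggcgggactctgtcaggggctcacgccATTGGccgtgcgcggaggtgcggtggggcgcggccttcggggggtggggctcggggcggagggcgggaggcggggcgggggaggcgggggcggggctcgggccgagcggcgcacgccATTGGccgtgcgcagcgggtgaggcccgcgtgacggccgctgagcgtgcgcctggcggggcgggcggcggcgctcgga

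The LPCAT3 stretch held 3 CCAAT boxes, the element read by the factor NF-Y, which began 105, 64 and 29 bases before the start. That of PCYT2 held 3, which began 243, 195 and 78 bases before it, and that of LPCAT1 held none. GC boxes (GGGCGG), read by Sp1 and its relatives, numbered 5 in LPCAT3, 3 in LPCAT1 and 7 in the printed stretch of PCYT2. A second listed start of PCYT2 had 0 CCAAT boxes and 3 GC boxes in its window. The promoter table covered 7 of the 10 genes with 8 starts, and its windows ran to 50 bases past each start. In windows of that length, 34.6% of all 35116 listed promoters held a CCAAT box and 45.0% a GC box. A GC box was not particular to the 3 printed genes. It lay in the windows of 6 of the 7, with 8 in MBOAT2, 4 in LPCAT4 and 1 in MBOAT7. The printed stretches were 69.2% (LPCAT3), 78.8% (LPCAT1) and 80% (PCYT2) G or C. The median for the same 250 bases of all listed promoters was 58%. The LXR repeat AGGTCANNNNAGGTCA, a single AGGTCA, the sterol regulatory core TCACNCCAC and the E-box CACGTG had no match in the windows of these 7 genes. Of all promoters, 0.0199%, 13.8%, 1.13% and 7.26% held them, in that order. The amino acid response core TGATGNAA matched in 1 window, that of PCYT1A, on the reverse strand and starting 4 bases before the start, and in 3.62% of all promoters. AGGTCA is part of the LXR repeat, and the other letters searched are not contained in one another. These matches describe letters only, and binding was not measured.

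Of the 9 genes measured, 8 passed the filter on level (mean of both arrays at or above log2 3.39, the 25th percentile of all probe sets), and all 8 were above it on each array. Differences are log2 LXR623 minus log2 DMSO. At least 1.5-fold higher with LXR623 (a log2 difference of 0.58) were 2 of the 8, LPCAT1 and LPCAT3, and 0 were at least 1.5-fold lower. Among all 16902 genes kept, 2.38% were higher and 2.01% lower by that fold, or 4.38% in either direction. Since the genes were chosen with this contrast known, nothing is read from the comparison of these shares. Above 0 were 6 of the 8, and the median difference was 0.20, beside 0 for all genes kept. Of all genes kept, 8251 were above 0 and 8162 below. With each array centred on its median, 5 of the 8 were above 0 and 3 below. Of all genes, 7346 were then above 0 and 9556 below, with a median of -0.04. The median of the examined enzymes was 0.13 without LPCAT1, and also 0.13 with LPCAT2 let in. In RNA of whole cultures, a change in the share of cells that express a gene and a change in RNA per cell cannot be told apart.

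**Figure D1:**
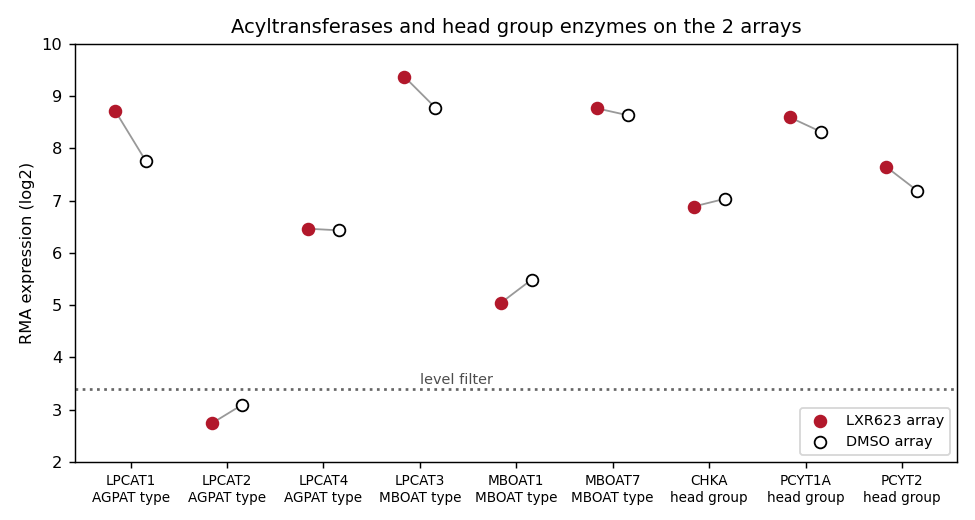
RMA expression (log2, vertical axis) of the 9 measured genes in the LXR623 array (filled points, left of each pair) and the DMSO array (open points, right), 1 array each, with the family under each symbol and the level filter as a dotted line. LPCAT1, at 8.72 against 7.75, is the steepest pair, LPCAT2 lies below the filter on both arrays, and heights of different genes are not comparable because probe sets differ.

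Among the AGPAT-type enzymes, LPCAT1, which puts saturated chains such as palmitate onto lysophosphatidylcholine and is best known from lung surfactant, was at log2 8.72 in the LXR623 array and 7.75 in the DMSO array. This is a difference of 0.97, or 1.96-fold, the highest of the 9 measured genes. It ranked at place 66 from the top of the 16902 genes kept. To show how far single genes scatter, the 500 genes nearest to LPCAT1 in level were taken. The central 95% of their differences ran from -0.50 to 0.49, and LPCAT1 lay outside it. LPCAT4, which acylates lysophosphatidylcholine and lysophosphatidylethanolamine, was at 6.46 with LXR623 and 6.43 with DMSO. Its difference of 0.03 turned to below 0 when each array was centred on its own median. LPCAT1 thus stood 0.94 above LPCAT4 on the log2 scale, within 1 family. LPCAT2, which also makes the inflammatory lipid platelet-activating factor, was at 2.73 with LXR623 and 3.09 with DMSO. These values lie below the filter on both arrays, so the size of its difference of -0.36 is uncertain.

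The MBOAT-type enzymes differed among themselves. LPCAT3, which adds linoleoyl and arachidonoyl chains, was at log2 9.37 in the LXR623 array and 8.78 in the DMSO array, a difference of 0.59 or 1.50-fold. It was the member just past the 1.5-fold line and ranked at place 392 of the 16902. The central 95% of genes at its level ran from -0.46 to 0.61, so LPCAT3 lay inside the scatter of single genes, close to its upper edge. With each array centred on its own median its difference was 0.55, under the line, and LPCAT1 was then the only one of the 8 past it. MBOAT1, which acylates lysophosphatidylethanolamine and lysophosphatidylserine, was at 5.04 with LXR623 and 5.49 with DMSO. Its difference of -0.45 was the lowest of the 9 measured genes and lay inside the range of genes at its level, -0.58 to 0.54. MBOAT7, which puts arachidonate onto lysophosphatidylinositol, was at 8.77 with LXR623 and 8.63 with DMSO, a difference of 0.13. LPCAT3 stood 1.04 above MBOAT1 and 0.46 above MBOAT7 on the log2 scale.

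**Figure D2:**
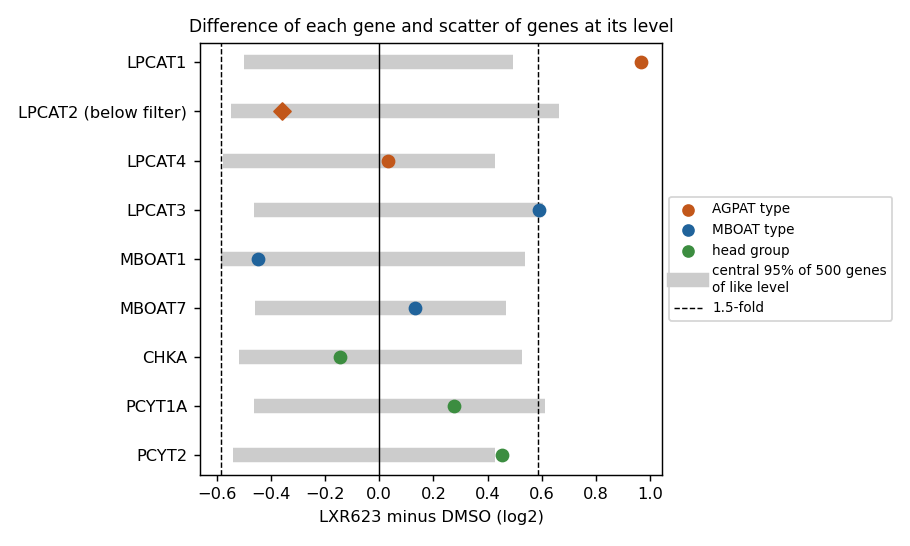
Difference LXR623 minus DMSO (log2, horizontal axis) of each measured gene (points coloured by family, diamond for LPCAT2 below the filter), with the central 95% of the 500 genes nearest in level (grey bars) and the 1.5-fold lines (dashed). LPCAT1 at 0.97 and PCYT2 at 0.45 lie outside their grey bars, and LPCAT3 at 0.59 lies just inside its own.

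In the head group branch, PCYT2, which makes CDP-ethanolamine, had the highest difference. It was at log2 7.64 in the LXR623 array and 7.19 in the DMSO array, a difference of 0.45 or 1.37-fold, at place 847 of the 16902. It did not reach 1.5-fold, but it lay just outside the central 95% of genes at its level, -0.54 to 0.43. PCYT1A, the rate-limiting enzyme that makes CDP-choline, was at 8.59 with LXR623 and 8.32 with DMSO. Its difference of 0.27 lay inside the scatter at its level, -0.46 to 0.61. CHKA, the choline kinase that takes the first step toward phosphatidylcholine, was at 6.89 with LXR623 and 7.03 with DMSO, a difference of -0.15. PCYT2 stood 0.18 above PCYT1A and 0.60 above CHKA on the log2 scale. The order of the 8 differences from high to low was thus LPCAT1, LPCAT3, PCYT2, PCYT1A, MBOAT7, LPCAT4, CHKA and MBOAT1. With 1 array per condition, no spread over samples can be set beside the steps of that order.

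**Figure D3:**
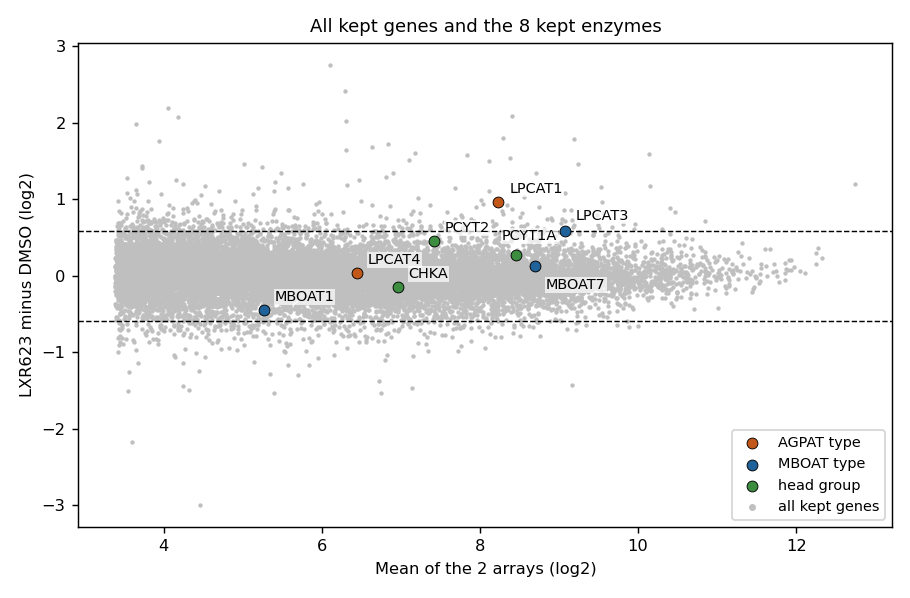
Difference LXR623 minus DMSO (log2, vertical axis) against the mean of both arrays (log2, horizontal axis) for the 16902 genes kept (grey points) and the 8 kept enzymes (coloured by family), with the 1.5-fold lines (dashed). LPCAT1 lies above most genes at its level, LPCAT3 sits on the upper line, and MBOAT1 at -0.45 is the lowest of the 8.

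The other enzymes of the Kennedy pathway lay above 0 in all 7 kept genes, with a median of 0.25 beside 0 for all genes kept, though 1 of them turned to below 0 with each array centred on its median. Of all 16902 genes kept, 8251 were above 0 as deposited and 7346 with centring. None of the 7 reached 1.5-fold in either direction, beside 4.38% of all genes kept. At that share, counts of 0 or 1 past the line say little about short lists, here and below. ETNK2, an ethanolamine kinase, was at log2 4.68 with LXR623 and 4.27 with DMSO, a difference of 0.41. Without ETNK2 the list median was 0.17, as it also was with a filter at the 50th percentile. PEMT, which methylates phosphatidylethanolamine to phosphatidylcholine, was at 8.15 with LXR623 and 7.84 with DMSO, a difference of 0.32. PCYT1B, the second gene for the CDP-choline step and named after its value was seen, differed by 0.25, or 0.03 less than PCYT1A. Choline transporters had a median of 0.12 over 5 genes. SLC44A1, a plasma membrane and mitochondrial choline transporter, was at 7.95 with LXR623 and 8.41 with DMSO, a difference of -0.46, and FLVCR1 differed by 0.22.

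Enzymes upstream of the head group steps diverged. Of 13 genes for phosphatidate and diacylglycerol synthesis, 7 were above 0 and 6 below, with a median of 0.04. That median was -0.02 without LPIN1 and also with a filter at the 50th percentile, so it has no settled direction. At least 1.5-fold higher was 1, LPIN1, a phosphatidate phosphatase that makes diacylglycerol, at log2 8.71 with LXR623 and 7.86 with DMSO (difference 0.85). GPAM, the mitochondrial glycerol-3-phosphate acyltransferase, was named after its value was seen. It was at 7.80 with LXR623 and 8.35 with DMSO, and its difference of -0.55 lay below the central 95% of genes at its level, -0.50 to 0.43. GPAM was just under 1.5-fold lower as deposited and passed that line when arrays were centred on their medians. In the branch to phosphatidylserine, phosphatidylinositol and cardiolipin, the median of 11 genes was -0.03, which turned to above 0 after a trend with level was removed, and none reached 1.5-fold. CRLS1, the cardiolipin synthase, differed by 0.32 and CDS1, a CDP-diacylglycerol synthase, by -0.27. The 4 kept ether lipid enzymes were all below 0, also under both rescalings, with a median of -0.13. Of all 16902 genes kept, 8162 were below 0 as deposited, 9556 with centring and 8530 after a trend with level was removed. AGPS differed by -0.25 and FAR1 by -0.13, and none of the 4 left the central 95% at its level.

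On the side of the Lands cycle that removes chains, none of 12 kept phospholipases A2 and lysophospholipases reached 1.5-fold, with a median of 0.07. PLAAT1 was at log2 4.56 with LXR623 and 5.01 with DMSO, a difference of -0.45, and the secreted phospholipase PLA2G5 differed by -0.38. Long-chain acyl-CoA synthetases, which activate the chains, had a median of 0.04 over 3 genes, with ACSL5 at -0.39 and ACSL1 at 0.12. With each array centred on its median, that median was just under 0. The enzymes that desaturate and lengthen the chains had a median of 0.61 over 5 genes, and 3 were at least 1.5-fold higher. SCD, which makes monounsaturated chains, was at 10.93 with LXR623 and 9.34 with DMSO, FADS2 at 8.67 and 7.56, and ELOVL6 at 9.11 and 8.50, in the same order. ELOVL6, at a difference of 0.61, dropped below 1.5-fold with centring. The remaining MBOAT superfamily, whose members act on cholesterol, diacylglycerol or proteins, had a median of 0.08 over 5 kept genes. HHAT, which acylates Hedgehog proteins, differed by -0.25 and SOAT2, which esterifies cholesterol, by 0.12. Across the 65 kept genes of these 9 lists, 4 passed the 1.5-fold line, all of them upward. The desaturase and elongase list gave 3 of the 4, and the other was LPIN1. With each array centred on its median, 3 passed upward and 1 downward. For all 16902 genes kept the shares were 2.38% upward and 2.01% downward as deposited. With centring, 319 of them passed upward and 427 downward. Because the lists were chosen with earlier results of these data known, no conclusion is drawn from setting their counts beside those of all genes.

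**Figure D4:**
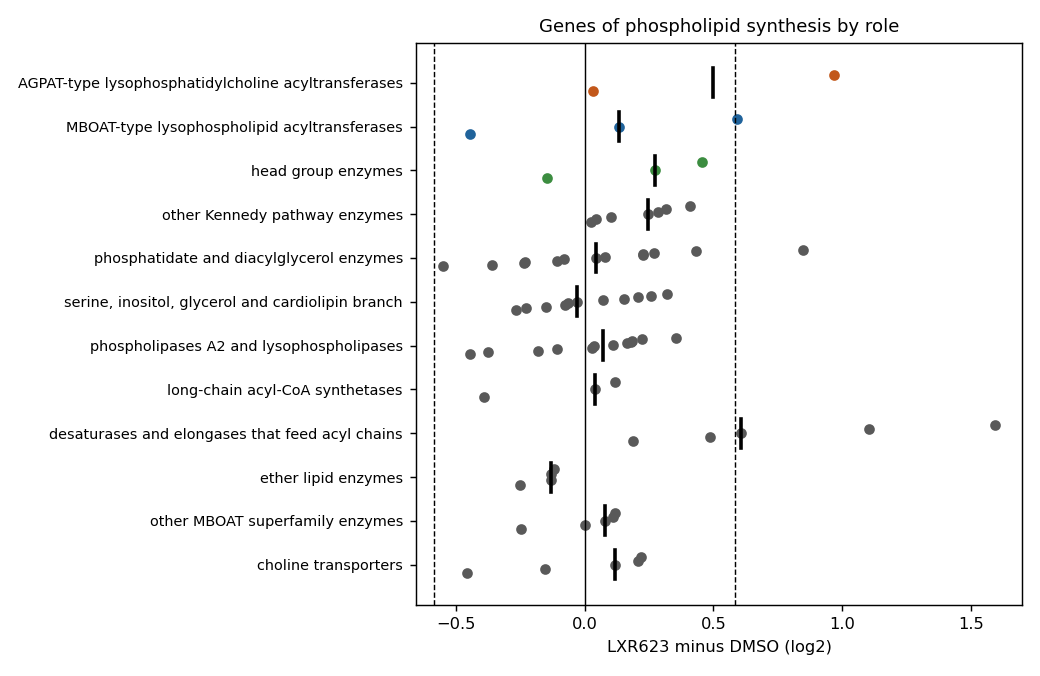
Difference LXR623 minus DMSO (log2, horizontal axis) of each kept gene (points) in the 3 groups of examined enzymes (coloured, top) and in 9 other lists by role (grey), with list medians as black bars and 1.5-fold as dashed lines. The 9 lists hold phospholipid genes and also genes of chain supply and the rest of the MBOAT superfamily. The desaturase and elongase list has the highest median, 0.61, though its points overlap those of other lists, and the ether lipid list lies wholly left of 0.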

How the data were processed

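Per the labels, the authors made the deposited log2 expression values by RMA with affy 1.36.1 in R 2.15.1, that is background subtraction, quantile normalisation and median polish. Quantile normalisation removes shifts shared by most genes, and differences of dim probe sets are compressed by RMA. The genome build is not given in the sources used here, nor is the array model. The platform annotation named 22458 of 23786 probe sets, each with 1 symbol and 1 set per gene, and 1328 unnamed sets were left out. Groups came from the treatment labels. Genes whose mean reached the 25th percentile (16902) were kept. With 1 array per group no p-value was computed, and the difference of log2 values was set beside the 500 named genes nearest in mean level. Members and lists were chosen with earlier results of these data known. Named were all members, each list's genes past 1.5-fold and its extreme gene (with the next, where none passed), and ABCA1, SREBF1, NR1H2 and NR1H3. Others were named after their values were seen. These were PCYT1B, GPAM, ABCG1 and MYLIP and, with their differences, the cell markers SLC1A3, CAV1, CHI3L1 and FN1. Alternatives were median centring, removal of a lowess curve (span 0.3), other level filters, other fold thresholds, the mean, and leaving out the extreme gene. The calculation was tested on simulated data with planted changes well past 1.5-fold. That checks the arithmetic, and not how well differences near 1.5-fold are found. A planned comparison of protein sequences was not run. Promoters came from RefSeq (GRCh38.p14). Python 3.11.15, numpy 2.4.6, pandas 2.3.3, statsmodels 0.14.6 and matplotlib 3.10.9 were used.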

Additional observations from a re-analysis of the deposited data

How the results depend on the processing

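Under the rescalings, 172 values of 86 named or listed genes were recomputed, and 0 moved by more than an SD taken from genes of like level. Median centring lowered every difference by 0.040, and removal of the lowess curve moved them by -0.057 to 0.034. The SDs of the measured enzymes were 0.24 (MBOAT7) to 0.31 (LPCAT2). Shifts this small could not pass such SDs, so the 0 followed by construction. Past 1.5-fold changed for 3 genes, all with centring: LPCAT3 and ELOVL6 no longer passed and GPAM passed. The count among the examined enzymes was then 1 (LPCAT1). It was 0 at 2-fold and 4 at the looser fold threshold (3 higher, 1 lower), by construction. Among the other lists the count was 2 at 2-fold and 14 at the looser one. Over all genes it was 85 at 2-fold, 3405 at the looser one and 436 with the 50th percentile filter, as fewer genes entered, against 741 as reported. Of those calls 54.3% were higher as deposited, and 42.8% of the 746 made with centring. The median of the examined enzymes was 0.16 to 0.23 under both rescalings and the mean, and 0.13 without LPCAT1 or with LPCAT2 let in, so 1 gene moved it by over 1.5 times. Of 66 list medians under alternatives, 4 moved by more than their spread (the like-level SD over the root of the number of genes). The mean gave 0.80 for desaturases and elongases, -0.014 for choline transporters and 0.67 for LXR receptors and targets, and the stricter filter gave 0.53 for the last list over 4 genes. For these the cause was not tested. No paired analysis was possible because there was 1 array in each group. Signal over background was not analysed here, and dim genes such as LPCAT2 limit what the arrays resolve.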
